A study of Drosophila melanogaster with 6 samples.

Results

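The vacuolar ATPase (V-ATPase) subunits are described here in whole stage 11 Drosophila embryos of wild type (WT, Oregon R) and of the fkh[6] mutant, which carries a mutant allele of the gene for the FoxA transcription factor Fork head (Fkh). Its members are all probe sets of the array that name a single gene whose current symbol starts with Vha: 32 of 18769 probe sets, covering 31 of the 11982 genes that had a probe set. The RefSeq gene table holds 33 genes with such a symbol. The other 2, Vha68-1 and Vha68-2, which encode forms of the catalytic A subunit, had no probe set naming them alone and were not analysed here. Each genotype was measured in 3 independent collections of embryos, with 1 Affymetrix array for each. Embryos were aged at 25 C and passed through an embryo sorter before RNA was extracted. The labels give Oregon R as the strain of both groups and name no other allele or treatment, and the mutant group rests on 1 allele. RNA came from entire embryos, so that fewer cells of a type and less RNA per cell cannot be told apart.

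The V-ATPase is a rotary pump that spends ATP to move protons across membranes. Its soluble sector, V1, holds the catalytic A and B subunits, the rotor stalk of D and F, the peripheral stalks of E and G, and the C and H subunits, which govern whether the pump is assembled and active. Its membrane sector, V0, holds the ring of c and c'' subunits that carries the protons, the large a subunit that gives them a path through the membrane and directs the pump to its compartment, and the small d and e subunits. The pump acidifies endosomes, lysosomes and secretory vesicles in all cells, and in insects it also powers ion transport across the plasma membrane of the Malpighian tubules and parts of the gut, tissues in which Fkh is expressed. Flies have several gene copies for most subunits. Of these copies, 1 for each subunit is known as the widely used form that is abundant in transporting epithelia, and these 13 genes are called the epithelial set below. Many of the other copies are known mainly from the adult testis.

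Values are log2 signals as normalized by the authors, and differences are fkh mutants minus WT on this scale. The groups were compared with limma over all probe sets. To be called, a probe set needed a Benjamini-Hochberg adjusted p below 0.05 together with a change of more than 1.4-fold. Signals of different probe sets depend on their probes, so no gene's level is compared with that of another gene. A probe set is termed dim where its mean over the 6 arrays was below 5.42, the median of all probe sets, and whether dim signals exceed background was not measured.

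Most Vha transcripts differed little between fkh mutants and WT, and 2 of the 32 probe sets were called, both higher in fkh mutants. They were VhaSFD (CG17332), which encodes the H subunit, and Vha13 (CG6213), which encodes the G subunit of the peripheral stalks. The share called higher was 6.25% of the members and 6.19% of all probe sets, so that the count of members was at the background. No member was called lower by limma, against 6.13% of all probe sets, and none at an unadjusted p under 0.05 with the fold minimum, against 6.85% of all probe sets. Under that looser rule 3 members were higher, against 7.83%. Without a fold minimum, 3 members were higher and 1 was lower at the adjusted p, against 7.42% and 9.56% of all probe sets. At an unadjusted p under 0.05 with no fold minimum, 10 members (31.2%) were higher and 4 (12.5%) were lower, against 11.9% and 19.3% of all probe sets. The groups did not overlap in 37.5% of the members upwards and in 18.8% downwards, against 13.5% and 25.1% of all probe sets. By these looser measures the share of higher members was above that of all probe sets, and it was not tested. The 95% interval of the difference lay within 1.4-fold in either direction for 18 of the 32 members (56.2%), against 64.5% of all probe sets. It reached past 1.4-fold for 12 of the 30 members that were not called. No interval of a member reached 2-fold in either direction. Over the 31 genes the median difference was -0.04, with single genes between -0.34 and 0.75, and over all genes it was -0.07.

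**Figure D1:**
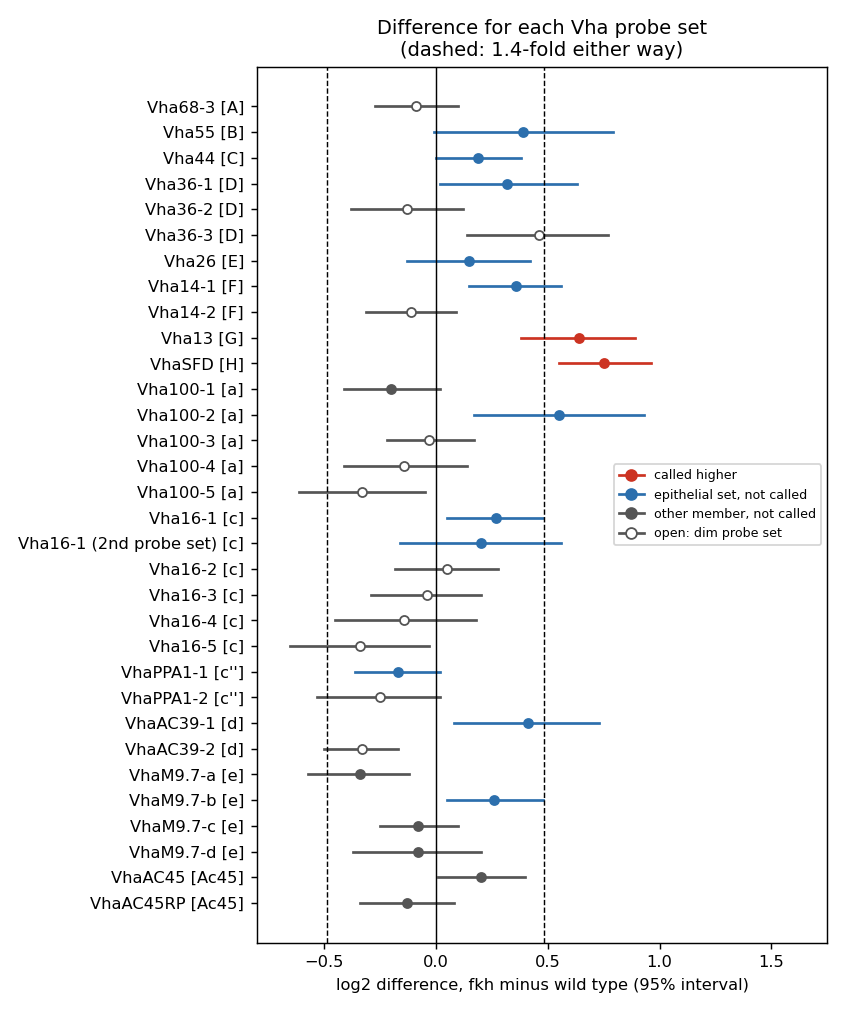
Difference between fkh mutants and WT (log2) for each of the 32 Vha probe sets, with its subunit in brackets; points are estimates, lines are 95% intervals from limma, dashed lines mark 1.4-fold in either direction, and open points are dim probe sets. VhaSFD and Vha13 are the members called higher, 11 of the 12 measured genes of the epithelial set lie above 0, and 16 of the other 19 genes lie below 0.

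The H subunit is known from yeast to hold detached V1 sectors inactive and to take part in the working pump. VhaSFD signals were 9.92, 9.75 and 9.71 in WT and 10.46, 10.59 and 10.59 in fkh mutants. Every mutant array was above every WT array, and the gap between the groups was wider than the spread within either. VhaSFD was 1.68-fold higher in fkh mutants (log2 difference 0.75, standard error 0.09, adjusted p = 0.002 from limma). Vha13 signals were 9.77, 9.81 and 9.75 in WT and 10.21, 10.60 and 10.42 in fkh mutants, again without overlap. Vha13 was 1.55-fold higher (log2 difference 0.64, standard error 0.11, adjusted p = 0.0095 from limma). The call of Vha13 was lost without WT replicate 3 (adjusted p = 0.051) and when each probe set was tested on its own spread alone (adjusted p = 0.061), whereas that of VhaSFD held under all 13 alternative fits. The annotation places VhaSFD on chromosome arm 2L and Vha13 on 3R.

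The rest of the V1 genes of the epithelial set had higher means in fkh mutants without passing the call. Vha14-1, which encodes the F subunit of the rotor stalk, was at 11.40, 11.45 and 11.42 in WT and 11.64, 11.91 and 11.79 in fkh mutants. Its 3 WT arrays lay within 0.05 of each other and all mutant arrays were above them. The difference of 0.36 (1.28-fold) had an adjusted p = 0.035 from limma, below the fold minimum. The adjusted p of Vha14-1 was above 0.05 in several alternative fits. Vha36-1, the D subunit that pairs with F in the rotor, was at 9.89, 9.77 and 9.72 in WT and 9.91, 10.05 and 10.38 in fkh mutants. Mutant replicate 1 was next to the highest WT array, and the difference of 0.32 had an adjusted p = 0.14. Vha55, the B subunit that binds nucleotide beside the catalytic A subunit, was at 9.11, 9.38 and 9.36 in WT and 9.61, 10.02 and 9.38 in fkh mutants. Mutant replicate 3 was barely above the highest WT value, equal to it when rounded, and the difference of 0.39 (95% interval -0.01 to 0.79) had an adjusted p = 0.17. Without that array the difference of Vha55 was 0.54 with an adjusted p = 0.045. It was 0.22 (adjusted p = 0.32) without mutant replicate 2, the highest mutant array. Vha44, the C subunit that joins the stalks to the membrane sector, differed by 0.19 (adjusted p = 0.16), with all mutant arrays (8.42, 8.60 and 8.43) above the WT arrays (8.29, 8.24 and 8.35). Vha26, the E subunit of the peripheral stalks, was the V1 gene of the set with the smallest difference, 0.15 (95% interval -0.13 to 0.42, adjusted p = 0.45), and its groups overlapped. The 7 measured V1 genes of the epithelial set thus ranged from 0.15 to 0.75 with a median of 0.36.

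Among the V0 genes of the epithelial set 4 had higher means in fkh mutants and 1 a lower mean, and none was called by limma. Vha100-2, a widely expressed form of the a subunit, was at 8.54, 8.56 and 8.48 in WT and 8.71, 9.38 and 9.13 in fkh mutants. The WT arrays were close together, the mutant arrays spread over a wider range, and all of them were above WT. The difference of 0.55 (1.46-fold, 95% interval 0.17 to 0.93) was over the fold minimum and missed the adjusted p (0.062). Without mutant replicate 1, the mutant array closest to WT, the difference was 0.73 with an adjusted p = 0.0086. Without mutant replicate 2, the array farthest from WT, it was 0.40 with an adjusted p = 0.10. VhaAC39-1, the d subunit that couples the rotor to the c ring, was at 9.81, 10.01 and 9.88 in WT and 10.37, 10.54 and 10.03 in fkh mutants. Its difference of 0.41 had an adjusted p = 0.091, and it was 0.55 (adjusted p = 0.0092) without mutant replicate 3, the array nearest to WT. It was 0.29 (adjusted p = 0.19) without mutant replicate 2, the array farthest from WT. Vha16-1, the main subunit of the proton-carrying ring, was represented by a pair of probe sets, which differed by 0.27 (adjusted p = 0.094) and 0.20 (adjusted p = 0.42). The brighter was at 12.00, 11.97 and 11.91 in WT and 12.24, 12.36 and 12.08 in fkh mutants, while the groups of the other overlapped. VhaM9.7-b, a small e subunit, differed by 0.26 (adjusted p = 0.10), with the mutant arrays from 11.06 to 11.28 and the WT arrays from 10.88 to 11.03. VhaPPA1-1, the c'' subunit of the ring, went the other way. It was at 11.12, 11.14 and 11.15 in WT and 11.04, 11.02 and 10.84 in fkh mutants, a difference of -0.17 (95% interval -0.36 to 0.02, adjusted p = 0.21) without overlap.

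**Figure D2:**
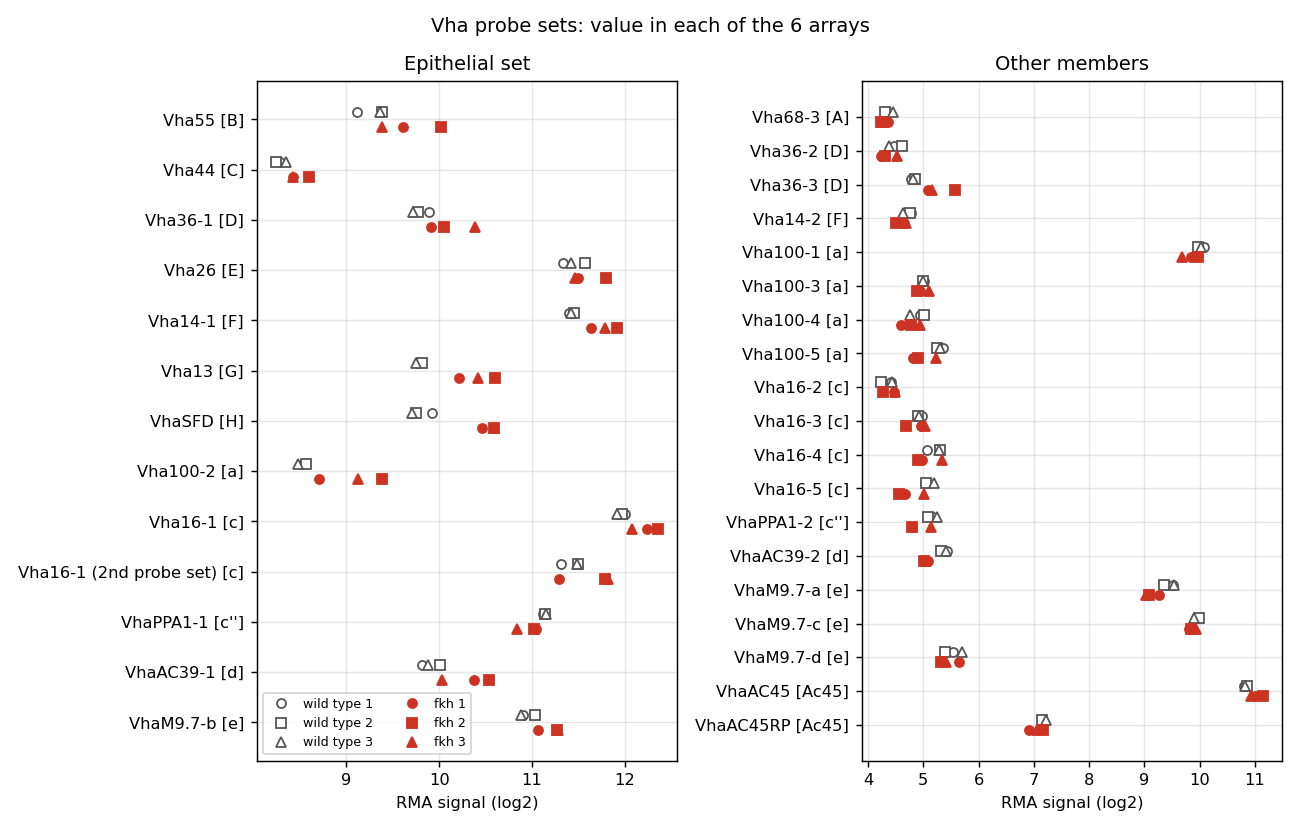
Log2 signal of each Vha probe set in every array, with the epithelial set on the left and the other members on the right; open grey symbols are WT arrays, filled red symbols are fkh mutant arrays, and circles, squares and triangles are replicates 1, 2 and 3. VhaSFD and Vha13 show a clear gap between the groups, VhaPPA1-1 lies lower in fkh mutants, and most of the other members have WT and mutant symbols close together.

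Over the epithelial set, every mutant array was above every WT array in 10 of the 12 measured genes and below in 1, and the groups overlapped in 1. Among all probe sets, 13.5% were separated upwards in this way and 25.1% downwards. The 12 genes were not dim, and of the 7464 genes that were not dim 1474 were separated upwards and 2435 downwards. The median difference of the set was 0.34, against -0.07 over all genes and -0.08 over the genes that were not dim, and 91.7% of its genes had a higher mean in fkh mutants, against 39.6% of the genes that were not dim. The set was listed from knowledge of the pump, but with other results of these arrays in view, and no test was made over it. With each gene represented by its brightest probe set, the directions of its 12 genes held in all 13 alternative fits. The second probe set of Vha16-1 turned to -0.02 with array weights. The median of the set ranged from 0.26 without mutant replicate 2 to 0.43 after cyclic loess normalization. Mutant replicate 2 had the highest value of the 3 mutant arrays in 8 of the 12 genes. The mean signal of the set was 10.17, 10.22 and 10.17 in WT and 10.43, 10.68 and 10.48 in fkh mutants, so that replicate 2 stood highest and all 3 mutant arrays were above WT.

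Late differentiation and endoderm markers moved with the genotype as whole lists, and the other marker lists did so only in part. These lists were drawn up with earlier results of these arrays known, so their counts carry no test. They hold the largest rise among all genes (Osi6, 8.03) and the largest fall (Jon44E, -5.2). Of all genes 7.8% were called higher and 7.89% lower. All 10 measured late differentiation genes were called higher, with mean log2 signals from 4.42 to 5.0 in WT and of 10.46, 11.01 and 8.84 in fkh replicates 1, 2 and 3. All 3 endoderm markers were called lower (mean signals from 9.98 to 10.05 in WT and from 7.16 to 7.47 in fkh mutants). Of 4 salivary gland markers 2 were lower, PH4alphaSG1 (mean 5.44 in WT and 4.75 in fkh mutants) and PH4alphaSG2 (5.77 and 4.92), and the mean signal of all 4 was 6.30 to 6.46 in WT arrays and 5.74 to 6.18 in mutant arrays. The salivary gland markers sage (difference -0.32) and eyg (0.25) were not called. Of 4 markers of Malpighian tubule and hindgut 1 was lower, byn (mean 6.75 in WT and 5.56 in fkh mutants), and the mean signal of all 4 was 6.96 to 7.08 in WT arrays and 6.45 to 6.72 in mutant arrays. The markers ct (difference -0.29), Kr (0.11) and Alp4 (-0.22) were not called. Of 17 maternal axis genes 2 were lower and none higher. Their mean signals were 7.8, 7.76 and 7.84 in WT and 7.7, 8.5 and 7.37 in fkh replicates 1, 2 and 3, so that only mutant replicate 2 was above WT. Mutant replicate 2 was thus highest for late differentiation genes, for maternal genes and for the epithelial set of the V-ATPase. The part of these markers in the Vha values was not tested. Without mutant replicate 2, VhaSFD and Vha13 were still the only members called. The fkh transcript itself was at 10.23, 10.11 and 10.28 in WT and 10.83, 10.62 and 10.64 in fkh mutants, so that its level does not show loss of the gene's product. Replicates spread less in WT (median SD over probe sets 0.0751) than in fkh mutants (0.146), and the SD of 30 of the 32 Vha probe sets was larger in fkh mutants. Array medians lay between 5.36 and 5.45. Of the calls over all probe sets 50.2% were rises, and 65.3% were after cyclic loess.

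Of the 19 other Vha genes none was called, 3 had a higher mean in fkh mutants and 16 a lower one, with a median of -0.13. The array as a whole leaned the same way, with a higher mean in fkh mutants for 36.9% of all genes and 32.5% of dim genes, and 13 of these 19 genes were dim. At an unadjusted p under 0.05, 2 of them were higher and 4 lower, shares near the 11.9% and 19.3% of all probe sets. VhaAC39-2, a second d subunit gene, was at 5.43, 5.32 and 5.41 in WT and 5.09, 5.02 and 5.05 in fkh mutants, with tight groups that did not overlap. The difference was -0.33, with an adjusted p = 0.02 from limma and a fold below the minimum (1.26-fold). Its adjusted p was 0.067 after cyclic loess, 0.056 with replicate number as a block and 0.056 to 0.097 without single WT arrays. The signal was dim. VhaM9.7-a, another e subunit gene, was at 9.52, 9.35 and 9.53 in WT and 9.27, 9.08 and 9.02 in fkh mutants. Its groups did not overlap, and the difference of -0.34 missed the adjusted p (0.053). Its relatives VhaM9.7-c and VhaM9.7-d both differed by -0.08, with groups that overlapped. Vha100-1, the form of the a subunit known from neurons and their synaptic vesicles, was at 10.08, 9.97 and 10.02 in WT and 9.85, 9.96 and 9.68 in fkh mutants. Mutant replicate 2 was next to the lowest WT array, and the difference of -0.20 had an adjusted p = 0.20.

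Dim probe sets represented 13 of these 19 genes. They include the 4 further c subunit genes, Vha16-2 to Vha16-5, with differences of 0.05, -0.04, -0.14 and -0.34, and the further a subunit genes Vha100-3, Vha100-4 and Vha100-5, with -0.03, -0.14 and -0.33. None of these 7 passed the adjusted p. The A subunit gene Vha68-3 differed by -0.09, the D subunit gene Vha36-2 by -0.13, the F subunit gene Vha14-2 by -0.11 and the second c'' gene VhaPPA1-2 by -0.25, also without a call. Most dim Vha genes were below WT in mutant replicates 1 and 2. The median deviation of the 13 dim Vha genes from their WT means was -0.23 and -0.22 in those arrays and 0.04 in mutant replicate 3, and over all 4518 dim genes it was -0.10, -0.12 and 0.03. Vha36-3 stood apart among the dim members. This further D subunit gene, on the X chromosome, was at 4.78, 4.84 and 4.81 in WT and 5.09, 5.57 and 5.15 in fkh mutants. All mutant arrays were above WT, with replicate 2 farthest, and the difference of 0.46 (1.37-fold) had an adjusted p = 0.059. It was called after scaling to ribosomal protein probe sets (difference 0.50, adjusted p = 0.049).

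**Figure D3:**
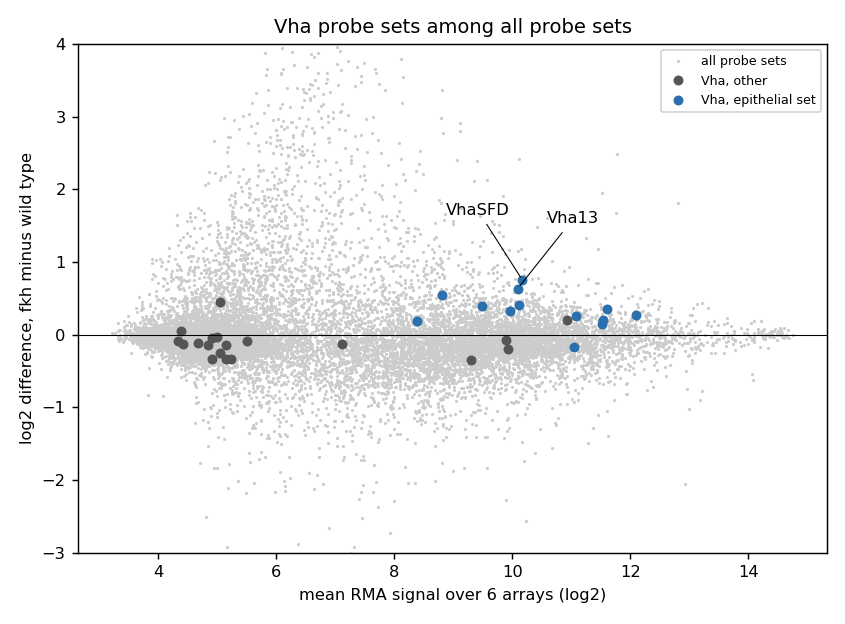
Log2 difference between fkh mutants and WT against the mean log2 signal over the 6 arrays, for all 18769 probe sets (light grey) and the Vha probe sets (blue, epithelial set; dark grey, other members); the axis is limited to differences from -3 to 4, which leaves out 49 probe sets. The epithelial set lies mostly above 0 among probe sets of high signal, most other members lie at low signal near or below 0, and all members stay inside the range of the bulk of the array.

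Some of the gene copies lie beside each other. Vha100-4 and Vha100-2 are neighbouring protein-coding genes on arm 3R, and they differed by -0.14 and 0.55. VhaPPA1-2 and VhaPPA1-1, also on 3R with 1 protein-coding gene between them, differed by -0.25 and -0.17. The neighbours Vha16-3 and Vha16-2 on 3L, both dim, differed by -0.04 and 0.05. Whether neighbours differed from each other was not tested. The 31 genes were spread over the arms, with 4 on 2L, 8 on 2R, 5 on 3L, 12 on 3R and 2 on X.

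Accessory subunits bind V0 and help to assemble the pump and to direct it. VhaAC45, homolog of the mammalian accessory protein Ac45, was at 10.80, 10.85 and 10.82 in WT and 11.00, 11.15 and 10.92 in fkh mutants. The groups did not overlap, and the difference of 0.20 had an adjusted p = 0.15. The related gene VhaAC45RP differed by -0.13 (adjusted p = 0.37). ATP6AP2, formerly VhaM8.9, a second accessory protein outside the symbol rule, was at 10.70, 10.74 and 10.73 in WT and 11.03, 11.16 and 10.99 in fkh mutants. It was 1.26-fold higher with an adjusted p = 0.025, below the fold minimum.

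The balance between subunits that bind each other was described for 3 pairs, chosen after the values were seen. For these pairs the log2 difference between both genes was taken within each array, without a test. Because the choice followed the values, the number of separated pairs says nothing about subunit pairs in general. Its level depends on the probes and only its change between groups can be read. In the peripheral stalk, Vha13 (G) minus Vha26 (E) was -1.57, -1.76 and -1.67 in WT and -1.29, -1.20 and -1.05 in fkh mutants, a change of 0.49. In the ring, VhaPPA1-1 (c'') minus Vha16-1 (c) was -0.88, -0.83 and -0.76 in WT and -1.20, -1.34 and -1.24 in fkh mutants, a change of -0.44. In both pairs the groups were well apart with the probe sets used. Vha16-1 was taken from its brighter probe set. The groups of its second probe set overlapped (11.31, 11.50 and 11.48 in WT and 11.29, 11.79 and 11.82 in fkh mutants). With that probe set the groups of the ring pair overlapped as well. In mutant replicate 1 VhaPPA1-1 was at 11.04 and that probe set at 11.29. They were farther apart in WT replicates 2 (11.14 and 11.50) and 3 (11.15 and 11.48). In the rotor stalk, Vha14-1 (F) minus Vha36-1 (D) changed by 0.03, with mutant arrays (1.73, 1.86 and 1.41) on both sides of the WT arrays (1.52, 1.68 and 1.70).

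**Figure D4:**
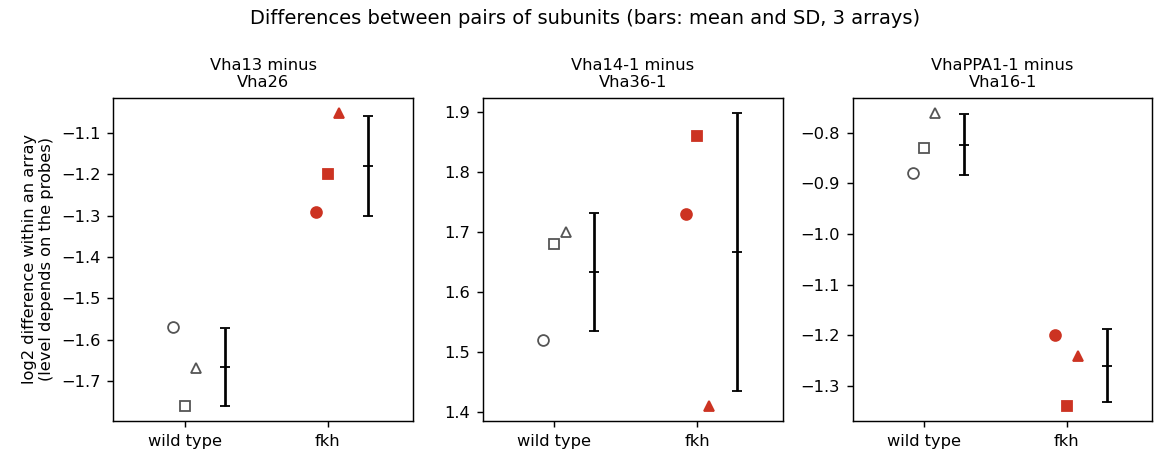
Log2 difference between a pair of subunit genes within each array, for WT (open grey) and fkh mutants (filled red), with circles, squares and triangles for replicates 1, 2 and 3 and bars for mean and SD over 3 arrays; each panel has its own axis, which does not start at 0. The groups are apart for Vha13 minus Vha26 and for VhaPPA1-1 minus Vha16-1 (brighter probe set of Vha16-1 only), and overlap for Vha14-1 minus Vha36-1.

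Other genes that work with the pump were counted beside all genes measured, of which 7.8% were called higher and 7.89% lower. Of 9 measured genes listed for V-ATPase assembly and regulation, 2 were lower and none was higher. One was Rbcn-3B (log2 difference -0.61, adjusted p = 0.0043), which encodes a rabconnectin that promotes assembly of V1 onto V0. The other was CG5969 (-1.32, adjusted p = 3.5e-04), whose place in this list is uncertain because no source used here gives its role, and without it 1 of 8 genes was lower. At an unadjusted p under 0.05, 1 gene of this list was higher: the dim Mitf, which encodes the factor known to activate V-ATPase and lysosomal genes, differed by 0.26 (adjusted p = 0.045), below the fold minimum. Of 8 genes of endosome fusion and sorting, 2 were lower, car (-1.49, adjusted p = 0.0011) and Vps16A (-0.63, adjusted p = 0.017), both of the complexes that tether late endosomes and lysosomes, and none was higher, also at an unadjusted p under 0.05. Of 15 lysosomal genes, 3 were lower and 1 higher. The lower ones were the mannosidase gene LManI (-0.92), the thioesterase gene Ppt1 (-0.50) and the cathepsin gene CtsB (-0.49), and the hexosaminidase gene Hexo2 was higher by 0.80. The medians of these 3 lists were -0.04, -0.20 and -0.05.

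The mitochondrial ATP synthase is the related rotary machine that makes ATP, and 11 of its 12 measured subunit genes had a higher mean in fkh mutants, with a median of 0.10 and a range from -0.07 to 0.40. None was called by limma, while 1 was higher at an unadjusted p under 0.05. This was ATPsyngamma, its rotor stalk, with an adjusted p = 0.016 at a difference of 0.40, below the fold minimum. None of the 5 transporters that load synaptic vesicles with the help of the proton gradient was called, with 1 higher at an unadjusted p under 0.05 and all 5 dim. Among 16 genes listed as ion transporters of tubule and gut epithelia, nrv3 (3.23) and nrv1 (0.86), which encode beta subunits of the sodium pump, were higher. The sodium-proton exchanger gene Nhe1 (-1.09) and the potassium channel gene Irk3 (-1.05) were lower. RNA came from whole embryos, so none of these changes can be assigned to tubule or gut. The related gene nrv2 went the other way from nrv1 and nrv3. Its difference of -0.46 had an adjusted p = 0.037 from limma, below the fold minimum.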

How the data were processed

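Total RNA of whole embryos was amplified, labelled with biotin and hybridized to Affymetrix Drosophila Genome 2.0 arrays. The deposited log2 signals cover 18769 probe sets and were computed by the authors in Partek by RMA, which corrects for background, equalizes the distribution of the arrays and combines the probes of a set. Versions were not given in the sources consulted. No detection call was used, no value was left out, and the number of arrays limits the precision. Probe sets were named with the platform annotation and brought to current symbols with the RefSeq table of assembly GCF_000001215.4, used also for arms and neighbours: 13647 named 1 gene, 402 several and 4720 none, and 103 of the first kept the annotation's symbol. Of the Vha probe sets, 7 are of a type whose probes can match several transcripts or genes (Vha55, Vha44, Vha26, Vha100-1, Vha100-2, VhaAC45 and the second of Vha16-1). A gene with several probe sets was represented by the brightest.

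All 6 arrays were fitted with limma 3.58.1 in R 4.3.3 without covariates, and p-values were adjusted over all probe sets. A check of the fit on simulated arrays gave both groups the same spread. It therefore does not cover the larger spread of the mutant arrays. The fold minimum of 1.4 is that of the methods. Every Vha probe set was described; those called, with or without the fold minimum, were named with the value in every array, and in other lists up to 4 called genes with the largest change. The members and lists were chosen with earlier results of these data known, so counts and medians of lists carry no test. Alternatives were fits without each array, with the replicate block, on each probe set's own spread, with an intensity trend or with weights for arrays, values renormalized by cyclic loess or scaled on 47 probe sets of ribosomal proteins, removal of the dimmest 33.3% and other thresholds. Sequences of the genes were not analysed here. Tables were made with Python 3.11.15 and pandas 2.3.3.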

Additional observations from a re-analysis of the deposited data

How the results depend on the processing

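Of 411 values of single Vha probe sets under alternative fits, 392 kept their direction and their side of the threshold. The 2 members called higher were 1 in the test without pooling and 0 at a 2-fold minimum, and 1 to 5 when single arrays were left out: 1 without WT replicate 3, 4 without fkh replicate 1 (with Vha100-2 and Vha36-3) and 5 without fkh replicate 3 (with Vha55, Vha36-3 and VhaAC39-1). The count called lower was 0 in every fit and 1 with no fold minimum. Vha14-1 passed the adjusted p without a fold minimum with all arrays but not without any single WT array (0.11 to 0.13). It also missed it without fkh replicate 2 (0.069), with the replicate block (0.063) and without pooling (0.085).

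Over all probe sets, higher and lower calls were 406 and 538 without pooling, 683 and 264 at a 2-fold minimum, 690 lower after cyclic loess, 1795 lower with no fold minimum, and 668 to 1522 higher and 705 to 1355 lower without single arrays (without WT arrays: replicate 1 gave 696 and 759, replicate 2 gave 761 and 863, and replicate 3 gave 668 and 705). Over the 6 lists of genes that work with the pump, transport ions or make ATP, 3 genes were called higher and 9 lower. The higher count was 0 without pooling and 5 with a trend, with ribosomal protein scaling or with the replicate block, and the lower count was 5 without pooling and 5 (without WT replicate 1) to 12 without single arrays.

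The median difference over all Vha genes, -0.04, was 0.04 after cyclic loess, 0.00 after ribosomal protein scaling, 0.06 without the dimmest 33.3%, and -0.08 to 0.02 without single arrays, so its direction is not settled. Several directions turned: after cyclic loess Vha100-3 (0.06), Vha16-3 (0.04), VhaM9.7-c (0.04), VhaM9.7-d (0.01) and VhaAC45RP (0.04), after ribosomal protein scaling Vha100-3 (0.02), with array weights VhaM9.7-d (0.03) and the second probe set of Vha16-1 (-0.02), and, when single arrays were left out, Vha100-3 (-0.09 to 0.02), Vha16-3 (-0.12 to 0.06) and Vha16-2 (-0.02 to 0.12). Most of these were near 0 in the main fit. The largest were the second probe set of Vha16-1 (0.20) and VhaAC45RP (-0.13). The cause was not tested.

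Replicate numbers name collections and did not pair the arrays: deviations of same-numbered arrays correlated at 0.072, 0.0727 and -0.0785. With the replicate block 2 members were called higher and 0 lower, the median over Vha genes was -0.04, and over all probe sets 1168 were higher and 1069 lower.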
